A study of Mus musculus with 15 samples.

Results

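The genes described here are 10 parts of the chemical and secretory defence of the gut lining. They are the C-type lectins Reg3b and Reg3g, the mucin-like scavenger receptor Dmbt1, the immunoglobulin transporter Pigr, the oxidases Nox1 and Duox2 with the maturation factor Duoxa2, the nitric oxide synthase Nos2, the antibacterial surface protein Lypd8 and the siderophore-binding lipocalin Lcn2. They were listed by name and not by a measured value, and all 10 were found among the 23420 gene symbols and among the 13159 genes that passed the filter on low counts. RNA was sequenced from primary ileal organoids, epithelial cultures grown in Matrigel from crypts of C57BL/6 mice. The organoids were at passage 2, were split after 10 days and treated on day 14. They were opened by pipetting and then held for 24 h in DMEM with 0.2% BSA. The 4 treated groups received bile acid pools modelled on human (H10 and H90) or mouse (M10 and M90) bile acids, and 10% (H10, M10) or 90% (H90, M90) of the bile acids in a pool were 12α-hydroxylated. Vehicle organoids had the same medium without bile acids, and each of the 5 groups had 3 libraries, named a, b and c. The composition and dose of the pools are not given in the sources used here, so each comparison sets whole mixtures against each other. The labels do not state whether libraries within a group were made from different mice or cultures, so the tests measure the spread between these libraries, which may be technical.

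The ileal epithelium keeps bacteria off its surface by several routes. Paneth cells and enterocytes secrete lectins and other antimicrobial proteins, of which Reg3g and Reg3b bind bacterial cell walls or membranes. Pigr takes up polymeric IgA at the basal side, carries it through the cell and releases it into the lumen. Nox1 and Duox2 pass electrons from NADPH to oxygen at the cell surface and so supply superoxide and hydrogen peroxide, while Nos2 makes nitric oxide from arginine. Bile acids signal in ileal cells largely through the nuclear receptor FXR, and in mouse ileum an FXR agonist has been reported to raise Nos2, the ribonuclease Ang and the cytokine Il18.

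The libraries held 11245807 to 28989526 counts. They also fell into 2 sets that the labels do not mention. Mup20, a liver-made urinary protein, stood at 21.6 to 36.3 CPM (counts per 10⁶ counts, on totals scaled by the TMM method) in set 1, which comprised H10 a to c, H90 a and vehicle a to c. It had 0.339 to 0.603 CPM in set 2, which comprised H90 b and c, M10 and M90. M10 and M90 therefore differ from vehicle in library set as well as in treatment, and only H90 has libraries of both sets. Results were refitted with library set as a term, and a value from that fit is given wherever a call depended on it. That term rests on H90 a against H90 b and c, since every other group lies within a single set. For every gene, a difference of M10 or M90 from vehicle or H10 that stayed in that fit depends on those H90 libraries. The organoid label was checked against markers. The epithelial marker Epcam had 1486 to 2052 CPM over the 15 libraries, and the 6 neutrophil markers summed to 0 to 0.0869 CPM. Of these, S100a8, Mpo, Elane, Ngp and Csf3r had 0 counts in all 15 libraries. Of 9 leukocyte markers, 7 were in the files and summed to 6.24 to 10.4 CPM, most of it from Itgam (3.14 to 6.76 CPM). The 5 fibroblast markers summed to 0.312 to 0.863 CPM in H10, 0.509 to 8.80 CPM in H90, 6.36 to 7.39 CPM in M10 and 4.08 to 8.21 CPM in M90, against 0.233 to 0.342 CPM in vehicle, where Col1a2 and Pdgfra had 0 counts. They thus moved with library set, through Col1a1, which lay between 0 and 0.108 CPM in the libraries of set 1 but between 3.82 and 8.21 CPM in those of set 2. The 6 liver markers, Mup20 among them, summed to 62.9 to 83.0 CPM in M10 and M90, against 157 to 194 CPM in vehicle. The part of these markers in the changes of the 10 genes was not tested.

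Against vehicle, the bile acid pools moved the defence genes in opposite directions. Reg3b, Pigr and Dmbt1 fell in all 4 pools, Reg3g and Nox1 fell in H10, M10 and M90, and Nos2 and Lypd8 rose in all 4 pools. Duox2 rose in H90 and M90, Lcn2 fell in M10 and M90 in step with library set, and Duoxa2 passed the test in no comparison. A gene counts as higher or lower here where edgeR's quasi-likelihood test gave a Benjamini-Hochberg adjusted p under 0.05 over all 13159 genes. In H10, 2 of the 10 genes were higher and 5 lower, while 24% of all tested genes were higher and 24.5% lower. In H90, 3 were higher and 3 lower, while 11.7% of all tested genes were higher and 9.86% lower. In M10, 2 were higher and 6 lower, while 31.2% of all tested genes were higher and 33.3% lower. In M90, 3 were higher and 6 lower, while 26.2% of all tested genes were higher and 28.5% lower. The median log2 change of the 10 genes was -0.24 for H10, -0.16 for H90, -1.40 for M10 and -0.89 for M90, and that of all tested genes lay between -0.03 and -0.0040. The M10 median is the same with Nox1 at the bound given for it further on. Since the 4 comparisons share the same 3 vehicle libraries, they do not replicate one another. Of the genes called in any direction, 47.9 to 54.3% were higher over the 4 comparisons. With library totals as the only scaling that share was 29.5 to 42.5%, and the median of all genes moved to -0.29 in M10, -0.17 in M90, -0.13 in H10 and -0.05 in H90.

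**Figure D1:**
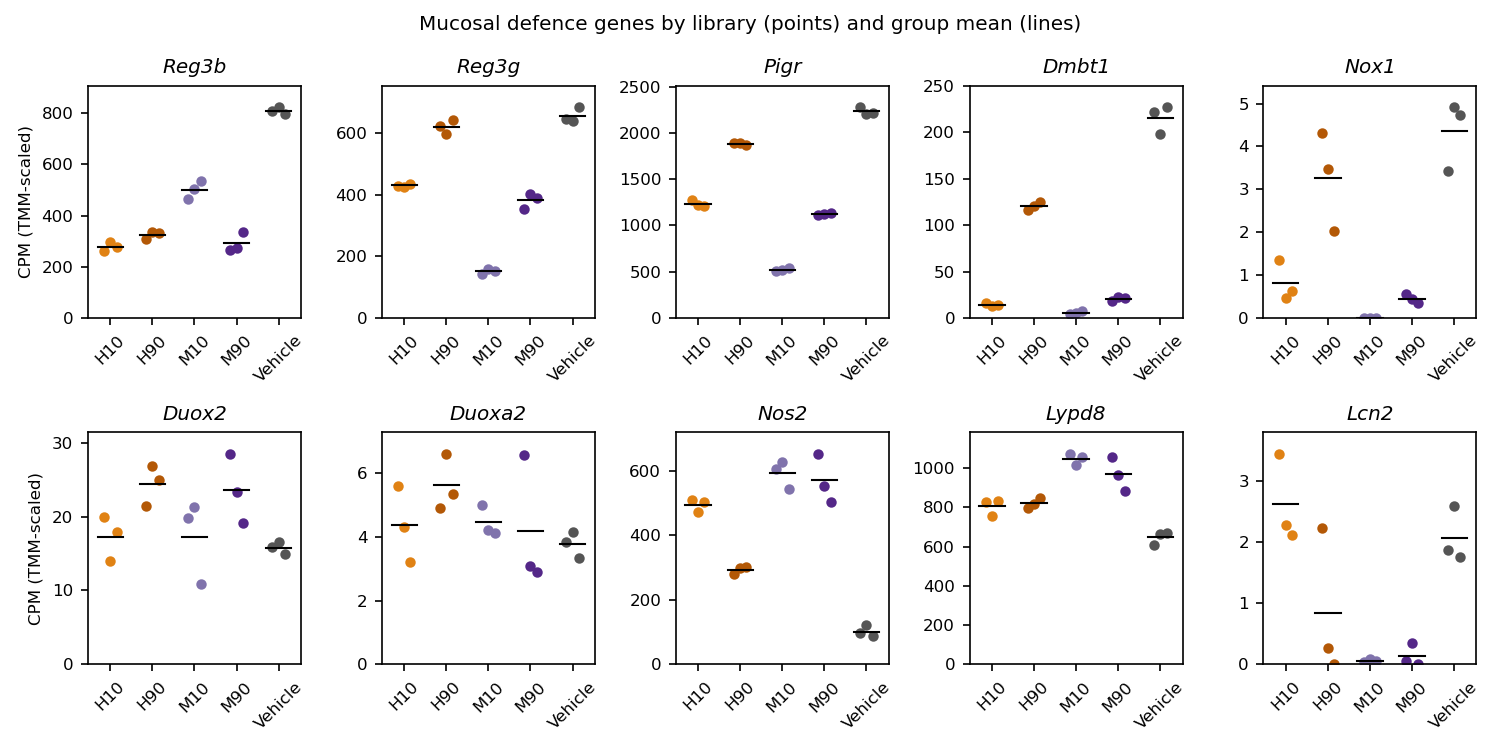
CPM (counts per 10⁶, TMM-scaled, linear axes from 0) of the 10 defence genes in each library, with points for the 3 libraries of H10, H90, M10, M90 and vehicle and a line for each group mean. Reg3b, Pigr and Dmbt1 lie highest in vehicle, Nos2 and Lypd8 lie lowest in vehicle, Nox1 is at 0 in all 3 M10 libraries, and the Lcn2 points of H90 are split between 2.23 CPM in library a and 0 to 0.271 CPM in the others.

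Reg3b, a lectin directed mainly at Gram-negative bacteria, was lower in every pool, and least so in M10. It had 260.3, 296 and 276 CPM in H10, 309, 335 and 334 CPM in H90, 464, 505 and 536 CPM in M10 and 267, 275 and 337 CPM in M90, against 810.2, 824 and 796 CPM in vehicle. Every pool library lay under every vehicle library, the M10 libraries lay above all other pool libraries, and M90 overlapped with both H10 and H90. The log2 change against vehicle was -1.55 (SE 0.0743, adjusted p = 1.40e-12) in H10, -1.31 (SE 0.0739, adjusted p = 1.01e-10) in H90, -0.69 (SE 0.0725, adjusted p = 8.34e-08) in M10 and -1.47 (SE 0.0740, adjusted p = 2.48e-12) in M90. The fall was 2.92-fold in H10 and 1.62-fold in M10. In bulk RNA, fewer cells of an expressing type and less RNA per cell cannot be told apart, here and for every gene below.

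Reg3g, the paralogue directed mainly at Gram-positive bacteria, followed a different order of pools. It had 429, 425 and 436 CPM in H10, 622, 599 and 642 CPM in H90, 144, 159.6 and 154 CPM in M10 and 354, 402 and 390.2 CPM in M90, against 646, 638 and 685 CPM in vehicle. M10 was lowest with no overlap, and the H90 libraries overlapped with vehicle. Its log2 change was -0.61 (SE 0.0475, adjusted p = 1.40e-13) in H10, -2.11 (SE 0.0498, adjusted p = 2.20e-29) in M10 and -0.78 (SE 0.0476, adjusted p = 1.20e-16) in M90. In H90 it was -0.08 (95% interval -0.18 to 0.02, adjusted p = 0.247), which did not pass the test. M10 was thus the pool with the lowest Reg3g and the highest Reg3b. Mean Reg3g ran, low to high, from M10 through M90, H10 and H90 to vehicle, and only H90 and vehicle overlapped among neighbours.

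The pair are neighbours in the genome. In the GENCODE annotation of GRCm38, Reg3b lies on the plus strand at chr6:78370657-78373466 and Reg3g on the minus strand at chr6:78466269-78468872, with 92802 bp between them. The longest run of bases that their annotated transcripts share is 35, so reads longer than that can be told apart, but the authors' treatment of reads with several matches is not given. The RefSeq promoter windows (GRCm38.p6, 300 bases around the RefSeq start, given here 5′ to 3′ on the gene's strand) are given so that the 2 sequences can be compared. They are built on RefSeq starts, and that of Reg3b (chr6:78370885) lies 228 bp inside the GENCODE span given above, while that of Reg3g (chr6:78468874) lies 2 bp outside it. Aligned end to end they shared 210 of 294 bases, or 71.43%. Capitals in Reg3b (plus strand, chr6:78370635-78370934) mark the STAT motif TTCNNNGAA, and capitals in Reg3g (minus strand, chr6:78468825-78469124) mark an NF-kB motif.
Reg3b: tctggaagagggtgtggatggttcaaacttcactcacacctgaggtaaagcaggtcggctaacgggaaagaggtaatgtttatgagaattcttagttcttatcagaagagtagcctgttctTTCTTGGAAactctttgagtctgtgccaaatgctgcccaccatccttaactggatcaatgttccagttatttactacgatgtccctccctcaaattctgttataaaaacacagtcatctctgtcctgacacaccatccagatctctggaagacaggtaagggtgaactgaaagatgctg
Reg3g: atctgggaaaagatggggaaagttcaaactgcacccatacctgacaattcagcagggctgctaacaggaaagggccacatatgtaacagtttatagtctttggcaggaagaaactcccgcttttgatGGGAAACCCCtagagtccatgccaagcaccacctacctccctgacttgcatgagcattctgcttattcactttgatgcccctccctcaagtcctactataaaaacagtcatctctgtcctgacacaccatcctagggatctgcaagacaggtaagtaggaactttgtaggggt
The STAT motif begins 129 bases before the RefSeq start of Reg3b, and so inside the GENCODE gene, and the NF-kB motif 123 bases before the RefSeq start of Reg3g. Both strands were searched, and each gene's window held only the one of these motifs. Among 27025 promoter windows of the same length, 8.47% held the STAT motif and 8.18% the NF-kB motif, so either is common. An FXR inverted repeat was in 0.0185% of the windows and in none of those of the 8 listed genes that the table holds. The Nox1 window also held an NF-kB motif, 91 bases before its RefSeq start (chrX:134111854), which lies 110102 bp inside the GENCODE span of that gene. Of the other listed genes, the windows of Duox2, Duoxa2, Lypd8 and Lcn2 held neither motif.

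Pigr, the polymeric immunoglobulin receptor, followed the Reg3g order and was the most abundant of the 10 genes by CPM in vehicle. It had 1272, 1225 and 1211 CPM in H10, 1895, 1889 and 1868 CPM in H90, 503, 518 and 537 CPM in M10 and 1113, 1124 and 1129 CPM in M90, against 2279.8, 2203 and 2218 CPM in vehicle. The 5 groups did not overlap, and M90 lay closest under H10. The log2 change was -0.85 (SE 0.0379, adjusted p = 1.41e-20) in H10, -0.25 (SE 0.0376, adjusted p = 4.01e-06) in H90, -2.10 (SE 0.0393, adjusted p = 1.88e-32) in M10 and -0.99 (SE 0.0380, adjusted p = 9.64e-23) in M90. Put as folds, Pigr was 4.30-fold lower in M10 and 1.19-fold lower in H90. Pigr lies on the plus strand at chr1:130826684-130852249. Its promoter window (chr1:130826434-130826733) is shown because it also holds the STAT motif, in capitals, which here begins 39 bases after the start.
Pigr: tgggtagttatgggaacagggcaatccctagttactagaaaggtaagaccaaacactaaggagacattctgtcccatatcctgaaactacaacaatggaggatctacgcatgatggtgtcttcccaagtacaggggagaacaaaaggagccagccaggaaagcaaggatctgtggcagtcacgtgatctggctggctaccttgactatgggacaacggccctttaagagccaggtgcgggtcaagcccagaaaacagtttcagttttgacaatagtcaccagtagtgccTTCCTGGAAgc
Genes of immunoglobulin transport, not all of them concerned with IgA, were counted beside Pigr. Among all tested genes, 24% rose and 24.5% fell in H10, and 11.7% rose and 9.86% fell in H90. In M10, 31.2% of all tested genes rose and 33.3% fell, and in M90, 26.2% rose and 28.5% fell. Of 6 tested genes of a list of immunoglobulin transport partners, 2 rose and 0 fell in H10, 2 rose and 0 fell in H90, 3 rose and 0 fell in M10, and 2 rose and 1 fell in M90. Fcgbp, a mucus protein of goblet cells, is also among the goblet markers summed further on. Fcgbp rose to 1671 CPM in H10, 917 CPM in H90, 3074 CPM in M10 and 1230.5 CPM in M90, against 643 CPM in vehicle. Fcgrt, the neonatal Fc receptor, rose in H90 (0.64), M10 (0.59) and M90 (0.83). Rab3d, a small GTPase of secretory vesicles, fell in M90 (-0.37).

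Dmbt1, a large secreted glycoprotein that binds and aggregates bacteria, fell in all 4 pools and in M10 by more than any other listed gene with counts in every M10 library. It had 16.4, 12.5 and 13.9 CPM in H10, 117, 121 and 125 CPM in H90, 4.36, 5.21 and 7.08 CPM in M10 and 18.2, 22.2 and 21.7 CPM in M90, against 222, 199 and 227 CPM in vehicle. The 5 groups did not overlap, with M10 lowest and vehicle highest. It was 15.1-fold lower in H10, 1.79-fold lower in H90, 39.5-fold lower in M10 and 10.4-fold lower in M90. On the log2 scale these changes were -3.92 (SE 0.103, adjusted p = 1.35e-23), -0.84 (SE 0.0865, adjusted p = 8.67e-09), -5.30 (SE 0.115, adjusted p = 2.61e-26) and -3.38 (SE 0.0982, adjusted p = 1.10e-22) in that order of pools. The gene lies on the plus strand at chr7:131032053-131121630. It lies within a stretch shared with Fgfr2 on the other strand, with no exon in common.

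Nox1, the catalytic subunit of the superoxide-producing oxidase of the gut epithelium, was scarce and had its groups in the same order as Reg3g and Pigr. It had 1.35, 0.468 and 0.627 CPM in H10, 4.31, 3.47 and 2.03 CPM in H90, 0 CPM in all 3 libraries of M10 and 0.553, 0.434 and 0.342 CPM in M90, against 3.44, 4.92 and 4.73 CPM in vehicle. All 3 M10 libraries had 0 counts, the M90 libraries had 8 to 11 counts, H10 had 9 to 25, H90 had 24 to 110 and vehicle had 59 to 144. H90 overlapped with vehicle, and M90 overlapped with H10. The log2 change was -2.43 (SE 0.461, adjusted p = 3.43e-05) in H10 and -3.30 (SE 0.491, adjusted p = 5.90e-07) in M90. In H90 it was -0.40 (95% interval -1.25 to 0.45, adjusted p = 0.555). For M10 the fitted change depends on the prior count, so it is given as a bound: at 3 counts per library, or 0.132 CPM, Nox1 was at least 33.1-fold lower than in vehicle (adjusted p = 2.07e-11). A count of 0 allows a level of up to that floor, which covers counting error only. Nox1 lies on the minus strand at chrX:134086421-134221956 and shares 399 bp of exon with Cstf2 on the other strand. Cstf2 had 867 to 1104 counts in M10, where Nox1 had none.

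The other parts of the Nox1 enzyme did not all follow it. Shares over all tested genes were 24% higher and 24.5% lower in H10, and 11.7% higher and 9.86% lower in H90. They were 31.2% higher and 33.3% lower in M10, and 26.2% higher and 28.5% lower in M90. Of 6 tested oxidase subunits and maturation factors, 1 rose and 2 fell in H10, 2 rose and 0 fell in H90, 2 rose and 2 fell in M10, and 1 rose and 1 fell in M90. Noxo1, the organiser that assembles Nox1 at the membrane, had 46.9 CPM in H10, 75.7 CPM in H90, 36.0 CPM in M10 and 56.7 CPM in M90, against 62.0 CPM in vehicle. It fell in H10 (-0.40) and M10 (-0.78), rose in H90 (0.28) and did not pass the test in M90 (-0.13). Rac1, the GTPase that activates the complex, rose by 0.13 in H90 to 0.54 in M10. Cyba, the membrane partner p22phox, rose in M10 (0.30) and did not pass the test in the other pools.

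Duox2, which makes hydrogen peroxide at the apical surface, and Duoxa2, which brings it out of the endoplasmic reticulum, changed little. Duox2 had 19.9, 14.0 and 17.96 CPM in H10, 21.5, 26.8 and 25.0 CPM in H90, 19.8, 21.3 and 10.8 CPM in M10 and 28.5, 23.3 and 19.1 CPM in M90, against 15.8, 16.5 and 14.96 CPM in vehicle. The H90 and M90 libraries lay above vehicle, while H10 and M10 overlapped with it, M10 c being the lowest of all 15. Duox2 passed the test in H90, with 0.62 (SE 0.194, adjusted p = 0.0244). It also passed in M90, with 0.58 (SE 0.192, adjusted p = 0.0144). In H10 the change was 0.13 (95% interval -0.27 to 0.54, adjusted p = 0.622) and in M10 0.14 (95% interval -0.26 to 0.54, adjusted p = 0.547). The H90 call ended with library set as a term (0.44, adjusted p = 0.384) and within set 1 (0.45, adjusted p = 0.0544). It also ended without vehicle a (0.63, adjusted p = 0.0749), vehicle b (0.66, 0.0557), vehicle c (0.59, 0.0880), H90 b (0.55, 0.1003) or H90 c (0.61, 0.1002). The M90 call ended with library set as a term (0.31, adjusted p = 0.545), with library totals as the only scaling (0.43, 0.0511), without vehicle c (0.55, 0.0566) and without M90 a (0.43, 0.0725). Without M10 c, Duox2 passed the test in M10 too (0.38, adjusted p = 0.0264).

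Duoxa2 had 5.60, 4.32 and 3.21 CPM in H10, 4.89, 6.62 and 5.33 CPM in H90, 5.02, 4.23 and 4.12 CPM in M10 and 6.58, 3.08 and 2.91 CPM in M90, against 3.85, 4.17 and 3.35 CPM in vehicle. M90 a lay above the 2 other M90 libraries, and apart from H90, which lay above vehicle, the pools overlapped with vehicle. None of its 4 changes passed the test, the largest being 0.56 (95% interval -0.01 to 1.14, adjusted p = 0.161) in H90. The interval for M10, -0.34 to 0.81, leaves room for a rise that these libraries could not show. Duox2 (minus strand, chr2:122279247-122298449) and Duoxa2 (plus strand, chr2:122298900-122302885) stand head to head with 450 bp between their starts. Duoxa2 shares 682 bp of exon with Duoxa1 on the other strand, and Duoxa1 itself had 0 to 7 counts per library.

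Nos2, inducible nitric oxide synthase, rose in every pool and was the listed gene with the largest rise. It had 508, 471 and 504 CPM in H10, 280.2, 300.0 and 301 CPM in H90, 607, 627 and 545 CPM in M10 and 653, 554 and 503 CPM in M90, against 97.3, 121 and 87.0 CPM in vehicle. No pool library overlapped with vehicle, and H90 lay under the 3 other pools, which overlapped in part. It was 4.84-fold higher in H10, 2.88-fold in H90, 5.81-fold in M10 and 5.58-fold in M90. On the log2 scale the change was 2.28 (SE 0.126, adjusted p = 2.49e-08) in H10, 1.52 (SE 0.125, adjusted p = 4.29e-06) in H90, 2.54 (SE 0.127, adjusted p = 4.71e-09) in M10 and 2.48 (SE 0.127, adjusted p = 1.01e-08) in M90. Nos2 lies on the plus strand at chr11:78920787-78960254. Leukocytes also make Nos2, and their 7 markers summed to 8.68 to 10.4 CPM in H10, 7.62 to 10.0 CPM in H90, 6.24 to 8.25 CPM in M10 and 9.24 to 10.4 CPM in M90, against 9.29 to 9.63 CPM in vehicle. These sums overlapped with vehicle in H10, H90 and M90 and were under it in M10. The part of leukocytes in the Nos2 values was not tested.

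Lypd8, a GPI-anchored protein that binds flagellated bacteria, also rose in every pool, by less. It had 829, 758 and 834 CPM in H10, 796, 820.2 and 847 CPM in H90, 1075, 1015 and 1056 CPM in M10 and 1056, 967 and 883 CPM in M90, against 611, 663 and 668 CPM in vehicle. All pool libraries lay above the highest vehicle library, and M10 and M90 lay above H10 and H90. Its log2 change was 0.32 (SE 0.0508, adjusted p = 2.81e-06) in H10, 0.34 (SE 0.0509, adjusted p = 3.75e-06) in H90, 0.70 (SE 0.0509, adjusted p = 5.53e-14) in M10 and 0.58 (SE 0.0509, adjusted p = 9.67e-12) in M90. With library totals as the only scaling, Lypd8 still passed the test in all 4 pools, with 0.19 in H10 and 0.43 in M10. Lypd8 lies on the plus strand at chr11:58379043-58390728.

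Lcn2, or neutrophil gelatinase-associated lipocalin, withholds iron from bacteria by binding their siderophores, and its counts followed library set. It had 3.45, 2.29 and 2.12 CPM in H10, 2.23, 0.271 and 0 CPM in H90, 0.0383, 0.0854 and 0.0509 CPM in M10 and 0.0502, 0.347 and 0 CPM in M90, against 1.86, 2.60 and 1.76 CPM in vehicle. The 7 libraries of set 1 ranged over 1.76 to 3.45 CPM and the 8 of set 2 over 0 to 0.347 CPM, with the break falling inside the H90 group. Lcn2 passed the test as lower in M10, with -5.03 (SE 0.996, adjusted p = 6.47e-05), and as lower in M90, with -3.89 (SE 0.886, adjusted p = 4.64e-04). Both calls ended with library set as a term, in M10 (-1.27, adjusted p = 0.496) and in M90 (-0.13, adjusted p = 0.956). H10, which shares set 1 with vehicle, had a change of 0.33 (95% interval -1.06 to 1.71, adjusted p = 0.731). For H90 the change was -1.17 (SE 0.711, adjusted p = 0.265), and it became -3.67 (adjusted p = 0.00238) without H90 a and 0.10 (adjusted p = 0.918) within set 1, and with limma-voom it was -2.30 (adjusted p = 0.0311). The whole M10 group held 4 counts of Lcn2 and the M90 group 9, against 149 in vehicle. Treatment and library set cannot be told apart for Lcn2 in M10 and M90. The neutrophil markers were at or near 0 in every library, as given above, and a neutrophil part in the Lcn2 values was not tested. Lcn2 lies on the minus strand at chr2:32384633-32388252.

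**Figure D2:**
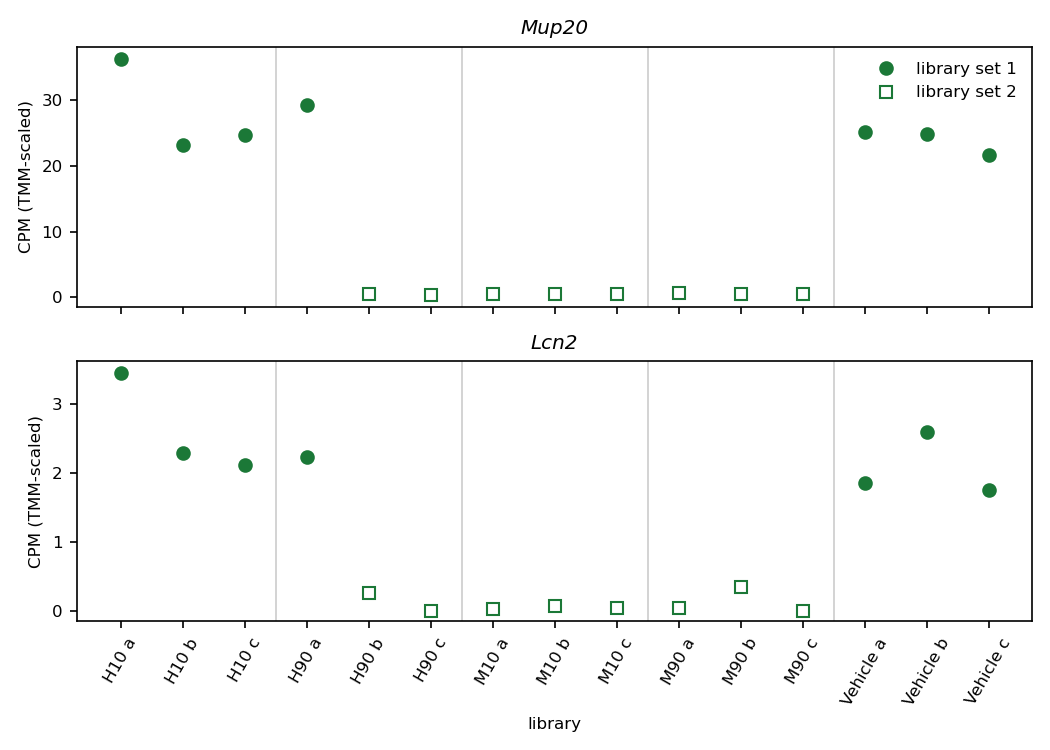
CPM (TMM-scaled, linear axes) of Mup20, the gene that defines the library sets, and of Lcn2 in each of the 15 libraries, with filled circles for set 1 and open squares for set 2. Both genes are high in the H10 and vehicle libraries and in H90 a and near 0 in H90 b, H90 c, M10 and M90.

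**Figure D3:**
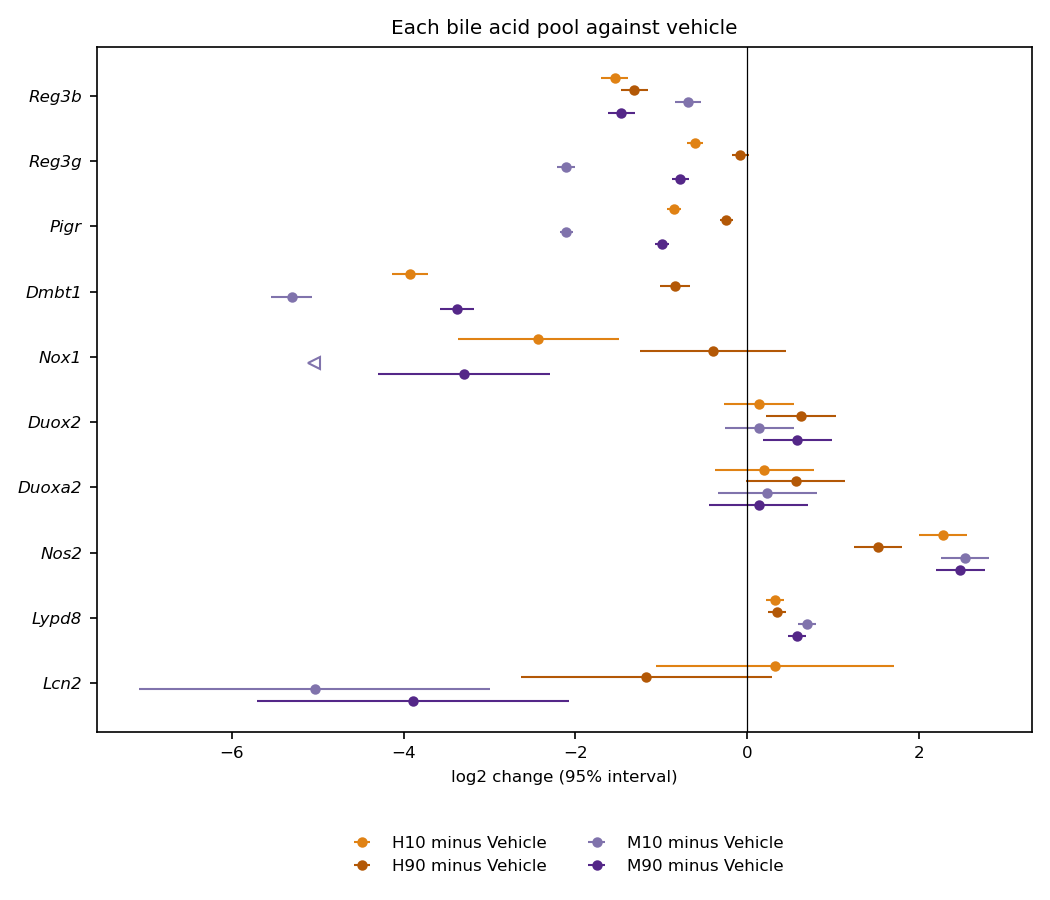
Log2 change of each defence gene in H10, H90, M10 and M90 against vehicle, with points for the edgeR estimate, bars for its 95% interval and a line at 0. The open triangle marks the bound for Nox1 in M10, at least 33.1-fold lower; Nos2 and Lypd8 lie right of 0 in all 4 pools and Reg3b, Pigr and Dmbt1 left of 0.

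The share of 12α-hydroxylated bile acids, the variable that the pools were built on, was compared within each species model. Raising it to 90% went with more Reg3g, Pigr, Dmbt1 and Nox1 in both models. Reg3b moved in opposite directions, Nos2 was lower at 90% in the human-like pools, and Lypd8 passed the test in neither model. In H90 against H10, 5 of the 10 genes were higher and 1 lower, while 18.2% of all tested genes were higher and 18.4% lower. In M90 against M10, 4 were higher and 1 lower, while 21.3% of all tested genes were higher and 20% lower. The median log2 change of the 10 genes was 0.43 for H90 minus H10 and 0.78 for M90 minus M10, beside 0.01 and 0.04 for all tested genes. With library totals as the only scaling, the higher genes were 66.9% of those called for H90 minus H10 and 69.7% for M90 minus M10, against 49.8% and 51.6% with TMM scaling.

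Dmbt1 had the largest of these differences among genes with counts in both groups, 3.08 (SE 0.102, adjusted p = 8.94e-20) for H90 minus H10 and 1.93 (SE 0.124, adjusted p = 1.08e-13) for M90 minus M10. That is 8.46-fold and 3.80-fold higher at the 90% share. Reg3g was higher by 0.53 (SE 0.0476, adjusted p = 1.94e-11) in the human-like pools and, in the mouse-like pools, by 1.33 (SE 0.0491, adjusted p = 5.70e-22). For Pigr the values were 0.61 (SE 0.0378, adjusted p = 1.38e-15) and 1.11 (SE 0.0383, adjusted p = 1.04e-22) in the same order. These 3 genes did not overlap between the groups of either pair. Nox1 was 4.10-fold higher in H90 than in H10 (adjusted p = 0.000595), and in M90 it was at least 3.36-fold higher than the floor of the M10 libraries, which had no counts (adjusted p = 4.56e-05).

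Reg3b was lower in M90 than in M10, by -0.77 (SE 0.0733, adjusted p = 6.33e-08) on the log2 scale, with no overlap. In the human-like pools it was higher at the 90% share by 0.23 (SE 0.0738, adjusted p = 0.0198). That call ended with library set as a term (0.16, adjusted p = 0.306) and within set 1 (0.16, 0.0603), and also without H10 a (0.19, 0.0805), H10 c (0.23, 0.0592), H90 b (0.21, 0.0667) or H90 c (0.22, 0.0941). Nos2 was lower in H90 than in H10, by -0.75 (SE 0.120, adjusted p = 4.25e-04), and its difference between M90 and M10 was -0.06 (95% interval -0.32 to 0.20, adjusted p = 0.748). Lypd8 differed by 0.02 (95% interval -0.08 to 0.13, adjusted p = 0.750) for H90 minus H10 and by -0.11 (95% interval -0.22 to -0.01, adjusted p = 0.0686) for M90 minus M10. With library totals as the only scaling, H90 minus H10 was 0.12 and passed the test (adjusted p = 0.0497). Lypd8 passed for M90 minus M10 without M90 a (-0.18, adjusted p = 0.00432), with limma-voom (-0.12, 0.0449) and within set 2 (-0.13, 0.0460).

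Duox2 was just outside the threshold in both pairs, with 0.49 (95% interval 0.09 to 0.90, adjusted p = 0.0519) for H90 minus H10 and 0.44 (95% interval 0.04 to 0.84, adjusted p = 0.0710) for M90 minus M10. It passed for H90 minus H10 without H10 a (0.60, adjusted p = 0.0373) and without H90 a (0.59, 0.0413), and for M90 minus M10 without M10 b (0.61, 0.0186) and without M90 c (0.57, 0.0212). Both values also passed with upper-quartile scaling (0.54 and 0.53), library totals alone (0.59 and 0.55), no filter on low counts (0.49 and 0.45), non-robust shrinkage (0.49 and 0.44) and DESeq2 (0.50, adjusted p = 0.0235, and 0.45, adjusted p = 0.0397). H90 minus H10 passed as well with a filter of 1 CPM in 3 libraries (0.50, adjusted p = 0.0472) and with those groups fitted alone (0.49, 0.00560). Whether Duox2 is called in these pairs thus depends on the settings. Duoxa2 differed by 0.37 (95% interval -0.21 to 0.94, adjusted p = 0.336) and -0.10 (95% interval -0.67 to 0.47, adjusted p = 0.817) in the same order. Lcn2 was uncalled in both pairs. Its value for H90 minus H10 was -1.50 (SE 0.712, adjusted p = 0.103), which became -3.99 (adjusted p = 0.000535) without H90 a and -0.22 (adjusted p = 0.755) within set 1. It passed the test with no filter on low counts (-1.51, adjusted p = 0.0217) and with limma-voom (-2.54, 0.00873). For M90 minus M10 it was 1.14 (SE 1.30, adjusted p = 0.520), both groups being near 0 counts, and it was -1.13 without M90 b (adjusted p = 0.681).

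Mouse-like and human-like pools were then compared at equal 12α-hydroxylated share. M10 (set 2) and H10 (set 1) differ in library set as well as in pool. M90 shares its set with H90 b and c but not with H90 a. At either share, Reg3g, Pigr, Dmbt1 and Nox1 were lower and Lypd8 was higher with the mouse-like pool. In M10 against H10, 2 of the 10 genes were higher and 5 lower, while 18.2% of all tested genes were higher and 18.1% lower. In M90 against H90, 2 were higher and 5 lower, while 19.2% of all tested genes were higher and 19.5% lower. The medians of the 10 genes were -0.62 and -0.56, beside -0.02 and -0.01 for all tested genes. With library totals as the only scaling, the higher genes were 25.1% of those called for M10 minus H10 and 30.1% for M90 minus H90, against 50.1% and 49.6% with TMM scaling.

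Reg3g was 2.82-fold lower in M10 than in H10 (-1.50, SE 0.0492) and 1.62-fold lower in M90 than in H90 (-0.70, SE 0.0477). For Pigr the log2 differences were -1.25 (SE 0.0384, adjusted p = 3.75e-24) and -0.75 (SE 0.0379, adjusted p = 5.12e-18). Dmbt1 was lower by -1.38 (SE 0.129, adjusted p = 5.91e-10) in M10 and by -2.54 (SE 0.0976, adjusted p = 1.59e-18) in M90. Nox1 was at least 6.17-fold lower in M10 than in H10 and 7.45-fold lower in M90 than in H90 (adjusted p = 1.08e-05). Reg3b was higher in M10 than in H10 (0.85, SE 0.0735, adjusted p = 2.44e-08). Its difference between M90 and H90 was -0.15 (95% interval -0.31 to 0.00, adjusted p = 0.118), and it passed the test without M90 c (-0.26, adjusted p = 0.000318), with library totals alone (-0.26, 0.0164) and with no filter on low counts (-0.14, 0.0147).

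Lypd8 was higher by 0.38 (SE 0.0507, adjusted p = 2.73e-07) in M10 than in H10 and by 0.24 (SE 0.0507, adjusted p = 2.67e-04) in M90 than in H90. With library totals as the only scaling the M90 difference was 0.12. With library set as a term, Lypd8 differed by 0.31 (adjusted p = 0.0185) for M10 minus H10. For M90 minus H90 that fit gave 0.22 (adjusted p = 0.00359). Nos2 was 1.94-fold higher in M90 than in H90 (0.96, SE 0.120, adjusted p = 6.06e-05), and its difference between M10 and H10 was 0.26 (95% interval 0.00 to 0.52, adjusted p = 0.112), although the libraries of those groups did not overlap. That difference passed the test with no filter on low counts (0.26, adjusted p = 1.79e-06), with non-robust shrinkage (0.26, 0.0110) and with M10 and H10 fitted alone (0.26, 4.85e-05). The differences for Duox2 were 0.01 (95% interval -0.40 to 0.41, adjusted p = 0.978) for M10 minus H10 and -0.04 (95% interval -0.44 to 0.35, adjusted p = 0.885) for M90 minus H90. Those for Duoxa2 were 0.04 (95% interval -0.53 to 0.61, adjusted p = 0.936) and -0.43 (95% interval -1.001 to 0.14, adjusted p = 0.242), and the second passed the test without M90 a (-0.90, adjusted p = 0.0188). Lcn2 was called lower in both mouse-like pools, by -5.36 (adjusted p = 7.70e-05) in M10 and -2.72 (adjusted p = 0.0189) in M90. With library set as a term these values were -1.59 (adjusted p = 0.511) and -0.22 (0.901). The M90 call also ended without H90 a (-0.22, adjusted p = 0.903), M90 a (-2.37, 0.0794) or M90 c (-2.13, 0.0759). It ended too within set 2 (-0.18, adjusted p = 0.950), with DESeq2 (-2.66, 0.0750), with limma-voom (-2.36, 0.148) and with M90 and H90 fitted alone (-2.68, 0.0816).

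**Figure D4:**
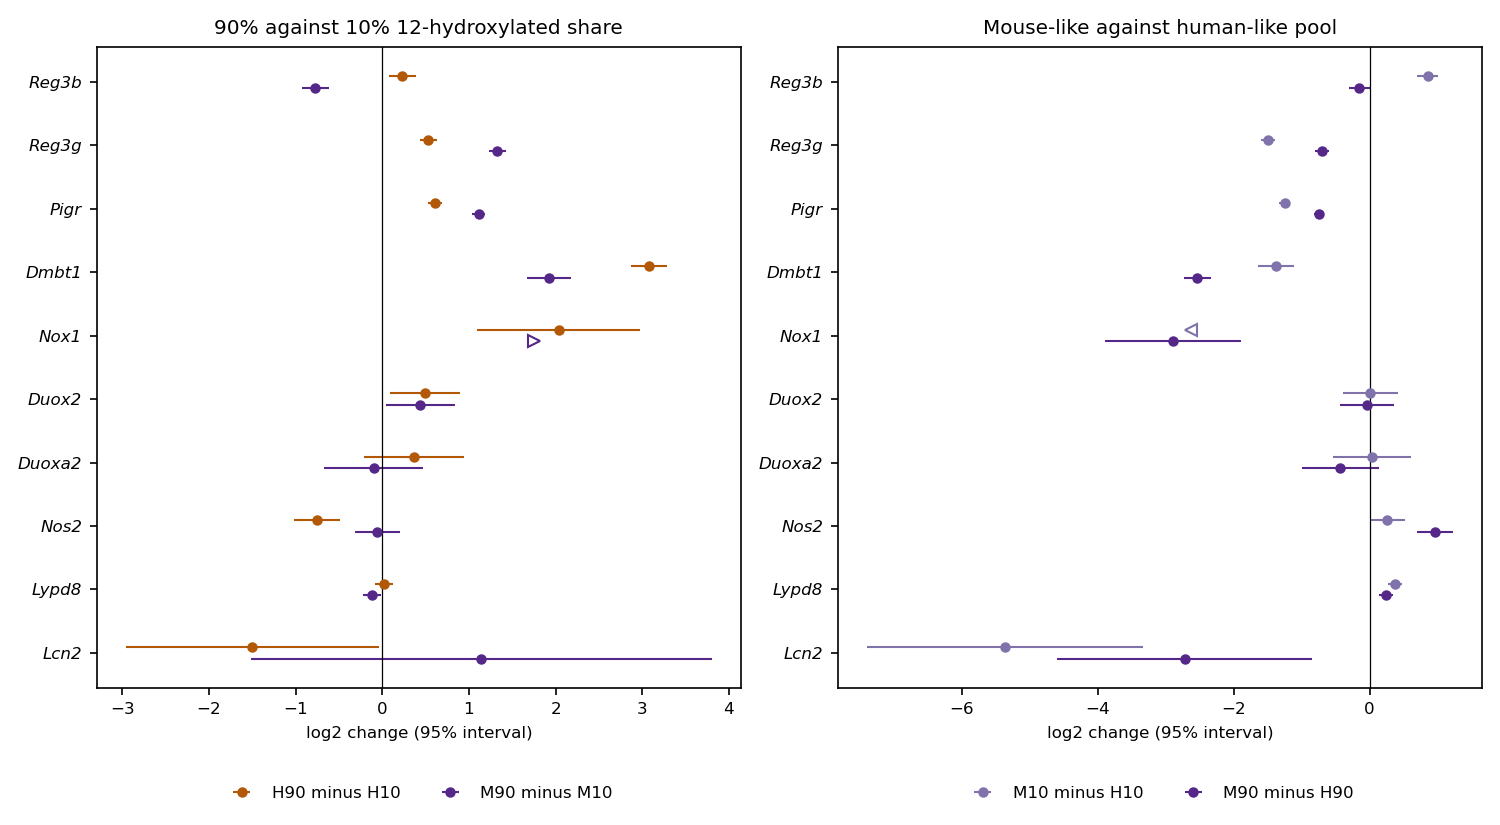
Log2 change of each defence gene between pools, with points for the edgeR estimate, bars for the 95% interval and a line at 0: the left panel sets the 90% share against the 10% share within each species model, the right panel the mouse-like against the human-like pool at equal share. Open triangles mark bounds for Nox1 where M10 had no counts; Reg3b lies on opposite sides of 0 in the left panel, and Reg3g, Pigr and Dmbt1 lie left of 0 at both shares in the right one.

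Whether the effect of the 12α-hydroxylated share differed between the species models was tested as an interaction, M90 minus M10 less H90 minus H10. It passed for 6 of the 10 genes, while it passed for 14.8% of all tested genes. The rise with the share was larger in the mouse-like pools for Reg3g (0.80, SE 0.0679, adjusted p = 4.70e-11) and Pigr (0.50, SE 0.0534, adjusted p = 9.05e-09). It was larger in the human-like pools for Dmbt1 (-1.15, SE 0.165, adjusted p = 7.84e-06). For Reg3b the value was -1.004 (SE 0.104, adjusted p = 1.73e-06), the 2 effects being of opposite sign. For Nos2 it was 0.70 (SE 0.167, adjusted p = 0.0174). Nox1 also passed (adjusted p = 0.0411), on a fitted value that the empty M10 libraries leave without a firm size. The 4 genes that did not pass were Duox2 (-0.05, adjusted p = 0.938), Duoxa2 (-0.47, 0.495), Lypd8 (-0.14, 0.212) and Lcn2 (2.64, 0.266). Without M90 a, Lypd8 passed (-0.21, adjusted p = 0.0392), and without H90 a, Lcn2 passed (5.14, 0.0124).

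Levels of the genes were compared with each other per kilobase of merged exon, since longer transcripts give more counts. A length merged over all annotated transcripts can exceed that of the transcript present, which lowers the level per kb. It was 2114 bp in 3 merged exons for Reg3g, 1142 bp in 7 for Reg3b and 2623 bp in 5 for Lcn2. The places of the genes below thus depend on the annotation. In vehicle the order was Reg3b (709 CPM per kb), Pigr (555), Lypd8 (504), Reg3g (310.4), Dmbt1 (30.6), Nos2 (23.1), Duoxa2 (2.38), Duox2 (2.33), Nox1 (1.32) and Lcn2 (0.791). In that order the library ranges of Pigr (547 to 566) and Lypd8 (476 to 520) were separate, and those of Duoxa2 (2.11 to 2.62) and Duox2 (2.21 to 2.44) overlapped. In M10 the first place went to Lypd8 (817 CPM per kb), followed by Reg3b (439), Nos2 (134), Pigr (129) and Reg3g (72.0). Nos2 and Pigr overlapped there, with 123 to 142 and 125 to 134 CPM per kb.

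Related genes of the defence system were counted from lists. Over all tested genes, 24% rose and 24.5% fell in H10, and 11.7% rose and 9.86% fell in H90. The shares were 31.2% and 33.3% in M10, and 26.2% and 28.5% in M90. No test of a list as a whole was run. No values with library set as a term are given for genes of these lists. That limit holds for the M10 and M90 counts here and below, and for the oxidase and immunoglobulin lists above. Among 8 tested genes of a list of other Reg lectins and secreted antimicrobials, 5 rose and 2 fell in H10, 5 rose and 0 fell in H90, 5 rose and 3 fell in M10, and 5 rose and 2 fell in M90. Reg3a, another Reg3 lectin, had log2 changes of -0.36 in H10, 0.09 in H90 (adjusted p = 0.441), -1.63 in M10 and -0.25 in M90. Zg16, a goblet cell lectin that binds Gram-positive bacteria, rose to 563 CPM in H10, 190.3 CPM in H90, 1947 CPM in M10 and 790.2 CPM in M90, against 79.7 CPM in vehicle. The ribonuclease Ang rose by 1.34 (H10), 1.30 (H90), 1.43 (M10) and 2.15 (M90) on the log2 scale. The median log2 change of this list was 1.19, 1.13, 1.15 and 1.05 in the 4 pools in that order.

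Genes that carry the signals for antimicrobial genes were also counted. Their counts stand beside 24% of all tested genes higher and 24.5% lower in H10, and 11.7% and 9.86% in H90. The same shares were 31.2% and 33.3% in M10, and 26.2% and 28.5% in M90. Of 16 tested genes of IL-22, IL-17 and STAT3 signalling, 8 rose and 0 fell in H10, 3 rose and 0 fell in H90, 8 rose and 1 fell in M10, and 8 rose and 0 fell in M90. Il18, an epithelial cytokine, rose by 1.05 with H10, 0.40 with H90, 1.97 with M10 and 1.22 with M90. Il22ra1, the IL-22 receptor chain, rose by 0.70 (H10), 0.36 (H90), 1.0001 (M10) and 0.47 (M90). Stat3, the transcription factor downstream of it, rose in H10 (0.36), M10 (0.83) and M90 (0.29), and its change in H90 was -0.14 (adjusted p = 0.0944). Of 29 tested genes of Toll-like receptor and NF-kB signalling, 10 rose and 5 fell in H10, 5 rose and 2 fell in H90, 13 rose and 5 fell in M10, and 10 rose and 7 fell in M90. Relb, an NF-kB subunit, rose by 0.47 in H90 to 1.04 in M10. Nfkbia, an inhibitor protein of NF-kB, rose in H10 (0.38), M10 (0.88) and M90 (0.46). Of 16 acute-phase and chemokine genes, 4 rose and 1 fell in H10, 1 rose and 1 fell in H90, 5 rose and 5 fell in M10, and 3 rose and 5 fell in M90. The lowest log2 change in that list was -1.38 in H10 and -1.24 in H90, but -7.23 in M10 and -6.81 in M90, whose libraries all lie in set 2. The part of library set in those falls was not tested. Ccl28, a chemokine that draws IgA-secreting cells, was 27.1 CPM in H10, 46.6 CPM in H90, 17.3 CPM in M10 and 24.2 CPM in M90, against 70.3 CPM in vehicle, and fell in all 4 pools. The chemokine Cxcl16 rose in H10 (0.86), M10 (1.69) and M90 (0.51), with 0.13 in H90 (adjusted p = 0.226). Ccl25, a chemokine of the small intestine that draws lymphocytes, rose in H10 (0.52), H90 (0.42), M10 (0.18) and M90 (0.71). Il1rn, the IL-1 receptor antagonist, rose in H10 (0.56) and M10 (0.80), with 0.11 in H90 (adjusted p = 0.224) and 0.078 in M90 (adjusted p = 0.301). Of 3 tested genes of iron and siderophore handling, 1 fell in H10, 1 in M10, 1 in M90 and 0 in H90, and none rose. It was the iron exporter Slc40a1 each time (-0.56, -1.56 and -0.56 in H10, M10 and M90).

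Markers of cell types moved with the same pools. The 5 markers of stem and dividing cells summed to 85.4 to 101 CPM in H10, 365 to 441 CPM in H90, 14.3 to 20.6 CPM in M10 and 93.8 to 105 CPM in M90, against 629 to 639 CPM in vehicle. M10 was thus lowest, H10 and M90 overlapped, and H90 lay nearest to vehicle, and the Reg3g, Pigr, Dmbt1 and Nox1 means likewise had M10 lowest, H10 and M90 next and H90 nearest to vehicle. Paneth markers summed to 165 to 183 CPM in H10, 128 to 129 CPM in H90, 190.2 to 210.3 CPM in M10 and 149 to 184 CPM in M90, against 64.9 to 91.0 CPM in vehicle, so they were higher in the pools, in which Reg3b was lower. Absorptive enterocyte markers summed to 17403 to 17720 CPM in H10, 12051 to 12756 CPM in H90, 25390.3 to 26402 CPM in M10 and 17955 to 18825 CPM in M90, against 11155 to 13207 CPM in vehicle. Goblet markers summed to 3361 to 3548 CPM in H10, 1846 to 1987 CPM in H90, 5629 to 6282 CPM in M10 and 2907 to 3221 CPM in M90, against 1186 to 1199 CPM in vehicle. The enterocyte and goblet sums thus had the same order of pools upwards, with M10 highest, H10 and M90 next and H90 nearest to vehicle. Reg3b had another order, with M10 nearest to vehicle. Enteroendocrine markers summed to 689 to 966 CPM over the 4 pools, against 388 to 500.1 CPM in vehicle, and tuft cell markers to 75.5 to 116 CPM, against 58.1 to 64.5 CPM in vehicle. None of these epithelial markers was at 0 in a whole group. The part of these shifts in the changes of the 10 genes was not tested.

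The genes whose pattern came closest to each listed gene were found by the root mean square difference of log2 changes over the 4 pools against vehicle, among 10479 genes with at least 2 CPM on average. Only the 7 listed genes with a log2 change of at least 1 in some pool were searched for. Pigr had the closest partners, Wdr12 (0.0944) and Ehf (0.0971). For Nos2 they were H2-Bl (0.123) and Wipf3 (0.157), and for Reg3g Ube2v2 (0.146) and Mettl8 (0.175). Reg3b was closest to Pak6 (0.272) and Smoc2 (0.316), and Dmbt1 to Kcne3 (0.271) and Myb (0.337). Nox1 was closest to Esco2 (0.508) and Fanci (0.681), a likeness that rests in part on the fitted M10 value. Lcn2 was closest to Mup7 (0.573) and Saa1 (0.611). Saa1, an acute-phase apolipoprotein made in liver and gut, likewise split, at 8.81 to 14.4 CPM in set 1 but at 0 to 0.922 CPM in set 2.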

How the data were processed

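Poly-A RNA of 15 organoid libraries was sequenced by the authors after TruSeq preparation, per the labels' protocols. The submitters' processing notes name bcl2fastq 2.17, STAR 2.5.2b, featureCounts 1.5.0-p3 and genome build mm10 (GRCm38). Raw counts of reads for each gene symbol and library were deposited, without normalization by the authors. Annotation, strand setting and treatment of reads with several matches are not given in the sources used here, so overlapping and antisense genes cannot be separated.

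Genes kept by edgeR's filterByExpr (13159 of 23420) were TMM-scaled and fitted with edgeR 4.0.16 in R 4.3.3 as 5 group means by robust quasi-likelihood, on 10 residual degrees of freedom (biological coefficient of variation 0.0881). Two-sided quasi-likelihood F tests gave 9 contrasts, and p-values adjusted by Benjamini and Hochberg's method across every tested gene were called under 0.05. Standard errors and 95% intervals come from that F statistic. The pipeline was tested on simulated data. Library totals of 11245807 to 28989526 counts set a floor of 3 counts per library, which covers counting error only. Alternatives were other scalings and filters, non-robust shrinkage, DESeq2 1.42.0, limma 3.58.1 (voom), fits of the compared groups alone, a replicate block, library set as a term, fits within 1 set, and leaving out each library. Set 1 holds libraries with Mup20 above 10 CPM.

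The listed genes, the related gene lists, the marker lists and the library sets were chosen with earlier results of these data known. Up to 4 genes of each related list, those with the smallest adjusted p over the 4 pools, could be named, and genes of closest pattern exclude listed genes and predicted names. One gene of the oxidase subunit list is counted but not reported by name here. Gene positions are those of GENCODE vM21, and exon lengths are merged over transcripts. Promoter windows come from RefSeq (GRCm38.p6) and hold 8 of the 10 genes. Figures were drawn with matplotlib 3.10.9.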

Additional observations from a re-analysis of the deposited data

Results flagged for a closer look

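The effect of the 12α-hydroxylated share differed between the mouse-like and human-like pools in 6 of the 10 genes and in 14.8% of all tested genes. These calls are by edgeR's test of the difference itself (M90 minus M10, less H90 minus H10, on the log2 scale). Reg3g had a difference of 0.80 (adjusted p = 4.70e-11) and Pigr of 0.50 (adjusted p = 9.05e-09), both rising with the share in both models and more so in the mouse-like pools. Dmbt1 had -1.15 (adjusted p = 7.84e-06), rising with the share in both models and more so in the human-like pools. Reg3b had -1.004 (adjusted p = 1.73e-06), with a fall in the mouse-like pools and a small rise in the human-like pools whose own call did not survive library set as a term. Nos2 had 0.70 (adjusted p = 0.0174), with a fall in the human-like pools. Nox1 had 4.23 (adjusted p = 0.0411), a size that rests on the empty M10 libraries and on the prior count. With library set as a term the differences for Reg3b (-0.93), Reg3g (0.80), Pigr (0.49), Dmbt1 (-1.11) and Nos2 (0.76, adjusted p = 0.0498) still passed the test, and that for Nox1 did not (3.86, adjusted p = 0.1003). Nox1 also missed the threshold without H10 a (3.71), H90 b (4.28), H90 c (4.05), M10 a (4.21), M10 b (4.22), M10 c (4.24), M90 a (4.06) or M90 b (4.24), at adjusted p from 0.0505 to 0.104. The same held with limma-voom (2.16, adjusted p = 0.267) and with the 4 pools of the contrast fitted alone (4.22, adjusted p = 0.0704).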

How the results depend on the processing

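The number of the 10 genes called in each of the 9 contrasts stayed within 1.5 times its reported value under every alternative run. With letters as a replicate block these counts were 7, 6, 8 and 9 for H10, H90, M10 and M90 minus vehicle. They were 8 for H90 minus H10, 6 for M90 minus M10 and 6 for the interaction. M10 minus H10 had 7 and M90 minus H90 had 8. Of all 13159 tested genes, the same fit called 6418 for H10, 2931 for H90, 8483 for M10 and 7213 for M90 minus vehicle. For H90 minus H10 it called 4889, for M90 minus M10 5491 and for the interaction 2031. Its calls over all genes were 4827 for M10 minus H10 and 5134 for M90 minus H90. The replicate block added calls for Duox2 (0.48) and Lcn2 (-1.85) in H90 minus H10, Duox2 (0.45) in M90 minus M10 and Reg3b (-0.16) in M90 minus H90. Residual profiles of libraries with the same letter correlated at -0.0282 to 0.0793 (median 0.0021) and those with other letters at -0.0582 to 0.0437, so letters were not treated as pairs, although for 10 of 15 libraries the best match shared the letter. Of 1640 refitted log2 changes of single genes, 1519 kept direction and side of the threshold, 39 lost a call, 39 gained one and 43 changed sign, the last being uncalled in both fits, and the cause was not tested.

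Sign changes with library set as a term were Lcn2 in H90 minus vehicle (0.10, and 0.10 within set 1), Duox2 (-0.13) and Duoxa2 (-0.061) in M10 minus vehicle, Duoxa2 (-0.16) in M90 minus vehicle, Lypd8 in H90 minus H10 (-0.020, and -0.018 within set 1), Duox2 (-0.26) and Duoxa2 (-0.26) in M10 minus H10, and Duox2 in the interaction (0.13). With library totals alone they were Duox2 (-0.13) and Duoxa2 (-0.029) in M10 minus vehicle, Duoxa2 (-0.019) in M90 minus vehicle, Duoxa2 (0.0100) and Nos2 (0.056) in M90 minus M10, and Duox2 (-0.13) and Duoxa2 (-0.10) in M10 minus H10. With upper-quartile scaling they were Nos2 (0.027) in M90 minus M10 and Duox2 (-0.065) and Duoxa2 (-0.035) in M10 minus H10. With limma-voom they were Duoxa2 (-0.0046) in M90 minus vehicle and Duox2 (-0.0061) in M10 minus H10, and with the replicate block Duox2 (-0.023) in M10 minus H10.

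Leaving out 1 library at a time gave ranges across 0 for Duoxa2 in H10 minus vehicle (-0.017 to 0.39), M90 minus vehicle (-0.34 to 0.34), M90 minus M10 (-0.57 to 0.11) and M10 minus H10 (-0.15 to 0.25). For Duox2 they were -0.030 to 0.38 in M10 minus vehicle, -0.16 to 0.25 in M10 minus H10, -0.20 to 0.089 in M90 minus H90 and -0.29 to 0.12 in the interaction. Lypd8 ran from -0.015 to 0.051 in H90 minus H10, and in M90 minus M10 Lcn2 ran from -1.13 to 1.73 and Nos2 from -0.17 to 0.026.

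Over all genes, library set as a term gave 5809 calls in place of 8482 for M10 minus vehicle. It gave 3958 in place of 7199 for M90 minus vehicle, 1069 in place of 2840 for H90 minus vehicle (1690 within set 1) and 2025 in place of 4779 for M10 minus H10. Depth limits Nox1 and Lcn2, whose libraries held 0 to 144 and 0 to 76 counts.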
